A study of Mus musculus with 4 samples.

Results

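The 2 libraries compared here were the cells whose barcodes end in suffix 1 and in suffix 2 of the deposited count table, 4061 of 8273 cells in all. They are called library 1 (1609 cells) and library 2 (2452 cells). The series holds regulatory T (Treg) cells from the thymus of 3-week-old B6 mice, 1 sample for each of 4 genotypes: IL2 wt/wt, IL2 o/o (labelled IL2 KO), IL15 wt/wt and IL15 o/o (labelled IL15 KO). All 4 carried Rag2-Gfp and Foxp3-Thy1a, so wild types and knockouts shared both reporters, and the sort gate was CD4+CD8-Thy1.1+GFP+. The labels do not say how many animals were behind a sample. The stated aim was to learn how IL-2 and IL-15 act, in amount and in kind, on how Treg cells develop, are selected and differentiate.

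Which sample lies behind which suffix is an assumption. If suffixes followed the order in which the samples are listed, libraries 1 and 2 would be the wild types of the IL2 and the IL15 line. No label and no column name used here ties a suffix to a sample, and a sample's genotype was not read from its values, so the assumption could not be checked. Libraries 1 and 2 are therefore described as 2 libraries of sorted thymic Treg cells without a genotype, and libraries 3 and 4 are given as side values. With 1 library a side there is no replicate and no test. Intervals are 95% and cover counting error only.

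Treg cells are CD4 T cells that restrain immune responses and are defined by the transcription factor Foxp3. In the thymus they form from CD4 single-positive cells that receive strong T cell receptor signals, and cytokines that use the common gamma chain, chiefly IL-2, then act through STAT5 to stabilise Foxp3. The Thy1.1 marker reports Foxp3, and GFP driven from Rag2 fades with time and with division, so that it marks recently formed T cells.

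Library 1 held 7890384 and library 2 11274713 unique molecular identifiers (UMIs, counted transcripts). The median cell had 3857 and 3640 UMIs and 1480 and 1456.5 genes. Mitochondrial transcripts made up a median of 2.36% and 2.26% of a cell's UMIs, and ribosomal protein transcripts 29.9% and 28.1%. Libraries 3 and 4 were shallower, at medians of 2501 and 3019 UMIs. Libraries 1 and 2 shared 1 barcode sequence, and the other pairs of libraries shared 3 to 10. Xist, the RNA that silences an X chromosome in females, stood at 1079 to 1193 CPM (UMIs scaled to 1000000 per library) in the 4 libraries. The Y-linked genes Ddx3y, Eif2s3y, Kdm5d and Uty had 0 UMIs in all 4. Gm47283, which is annotated on chromosome Y, had 448, 399, 177 and 305 UMIs in libraries 1 to 4. Its transcript aligned at 98.45% identity to that of Gm21887 on chromosome X, so its counts may not be its own.

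The cells carried the transcripts of the sorted type in both libraries. Ikzf2 (Helios), a transcription factor of thymic Treg cells, stood at 914 CPM in library 1 and 933 CPM in library 2. Tnfrsf4 (OX40), a costimulatory receptor, stood at 1116 and 1327 CPM. Foxp3 itself was sparse, at 14.3 and 12.6 CPM (113 and 142 UMIs). Markers of some other cells were low: over 4 platelet markers the summed level was 0.127 and 0.266 CPM with 3 of 4 at 0 in both, and over 6 B cell markers it was 21.4 and 16.1 CPM. The 7 erythroid markers summed to 2.28 and 8.96 CPM, with 4 at 0. In library 2 that sum came mostly from Hbb-bt, a beta globin, which had 0 UMIs in library 1 and 68 UMIs in 3 cells of library 2. The 16 myeloid and dendritic markers summed to 229.8 and 251 CPM with 7 at 0, and the 11 double-positive thymocyte markers to 168 and 176 CPM with no marker at 0. The 10 thymic epithelium markers summed to 17.5 and 21.9 CPM with 4 at 0. The 11 markers of NK and gamma delta T cells summed to 279 and 238 CPM with 1 at 0, mostly Nkg7 (199.7 and 168 CPM), a granule protein, and the chemokine Ccl5 (56.3 and 41.9 CPM). The part of such cells in the results was not tested.

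The cells of both libraries fell into the same 7 clusters, in similar but not equal shares. Clusters were made without the genes that had at least 200 UMIs and differed by at least 1.5-fold between the libraries. Differing genes with fewer UMIs, or with smaller differences, were not left out on this ground. Cluster 1 held 36.0% of library 1 (33.7 to 38.4) and 29.6% of library 2 (27.8 to 31.4), and these intervals did not overlap. It was led by A530021J07Rik, Tdrp and Pik3ip1, an inhibitor of PI3K signalling, and was left unnamed. Cluster 2 held 33.7% and 35.1%, was led by S100a6, a calcium-binding protein, Socs2, a STAT5-induced inhibitor of cytokine signalling, and Drc1, and was also left unnamed. Between them these clusters held most cells of either library.

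Cluster 6, with proliferating cells, was led by the mitotic genes Hmmr, Kif2c and Cenpf, and all 17 proliferation markers were at least 1.5-fold higher there. It held 7.33% of library 1 (6.11 to 8.72) and 9.22% of library 2 (8.10 to 10.4), shares that lay close with overlapping intervals. Cluster 5, the S phase cluster led by Ung, a DNA repair enzyme, held 13.7% and 15.1%. Of 18 S phase markers, 14 were at least 1.5-fold higher in cluster 5 and 17 in cluster 6. High S phase markers were therefore not particular to cluster 5. Cluster 4, TCR and NF-kB-signalled Treg-like, was led by Egr2, Nr4a3 and Nfkbid, which T cell receptor signals induce, and held 7.83% and 9.38%. Each of these 3 clusters held a smaller share of library 1 than of library 2, with overlapping intervals. The smallest groups were 9 and 14 interferon-response Treg-like cells (0.559% and 0.571%), led by Ifit3b and Ifit3, and 13 and 26 double-positive thymocyte-like cells (0.808% and 1.06%), led by Ly6d and Cd8a. Such cells should not pass a sort for CD8-negative cells, and whether they are doublets was not tested. In their cluster 10 of 11 double-positive thymocyte markers were at least 1.5-fold higher. So were 4 of 6 detected markers of NK, NKT or gamma delta T cells, and Gzma had 34 and 26 UMIs there. The authors' table of cells named as G1 held 86.8% of library 1 (85.1 to 88.4) and 85.9% of library 2 (84.5 to 87.3).

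**Figure D1:**
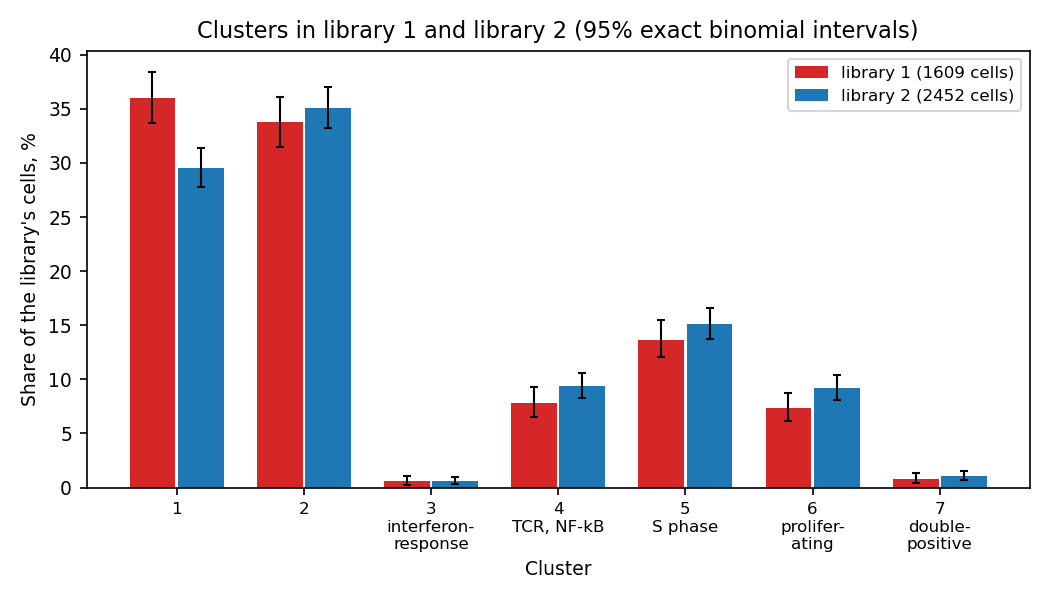
Share of each library's cells (y axis, %) in each of 7 clusters (x axis) for library 1 (red, 1609 cells) and library 2 (blue, 2452 cells); error bars are 95% exact binomial intervals that cover counting error only. Cluster 1 takes 36.0% of library 1 and 29.6% of library 2, and intervals overlap in the other clusters.

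Gene levels, in CPM over all cells of a library, were close. Among 6791 genes with at least 200 UMIs over both libraries, 60 (0.884%) differed by at least 1.5-fold: 51 (0.751%) were higher in library 1 and 9 (0.133%) in library 2. This split depended on the processing: it was 60 to 37 with each cell weighted alike, 38 to 19 with each cell thinned to 2056 UMIs and 174 to 134 with a minimum of 50 UMIs. The median absolute log2 ratio was 0.11, and the middle 90% of genes lay between -0.31 and 0.26 around a median of -0.05. Across genes, which are not independent replicates, log2 levels had a Pearson correlation of 0.994. The genes nearest the threshold were Usp53 (0.59) inside and Rps27rt (0.58) outside it in favour of library 1, and Penk (-0.59) inside and Gm45713 (-0.58) outside it in favour of library 2.

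For scale, the same rule called 1.16% of genes between libraries 1 and 4 and 1.52% between libraries 2 and 4. Between library 3 and libraries 1, 2 and 4 it called 14.7%, 19.4% and 10.1%. These pairs share libraries and differ in depth. With every library thinned to 5000000 UMIs, the shares were 1.14% for libraries 1 and 2, 1.18% for 1 and 4, and 1.40% for 2 and 4, while pairs with library 3 lay between 9.88% and 18.04%. Cell numbers and UMIs per cell still differed after this thinning. Pairs among libraries 1, 2 and 4 gave shares close to each other, and every pair with library 3 gave a larger share. Library 3 also held 1885 CPM of the 7 erythroid markers, against 2.28, 8.96 and 5.51 CPM in libraries 1, 2 and 4. The part of these transcripts in the larger shares was not tested.

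**Figure D2:**
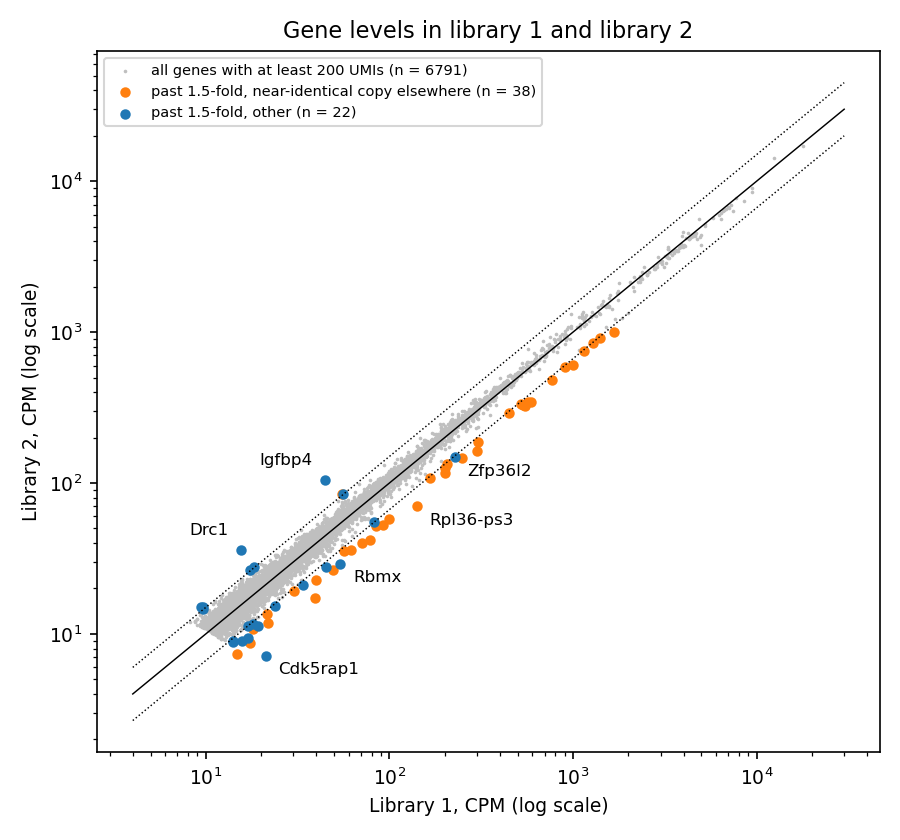
Level of each of 6791 genes in library 1 (x axis) and library 2 (y axis), in CPM on log scales; the solid line marks equal levels and the dotted lines a 1.5-fold difference. Genes past the lines are orange where a near-identical copy exists elsewhere in the genome (38) and blue otherwise (22), and most orange points lie on the side of library 1.

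Genes with a near-identical copy made up most of the genes higher in library 1 at a minimum of 200 UMIs. A near-identical copy was defined as another gene whose transcript aligned at 90% identity or more over at least 50% of the shorter transcript. Of the 50 genes higher in library 1 that have an annotated transcript, 37 (74%) had such a copy, against 357 of 6785 genes tested (5.26%). With a minimum of 50 UMIs genes with a copy were the smaller group, 55 of 172 genes (32.0%), against 503 of 9461 tested (5.32%). Read the other way at 200 UMIs, 37 of 357 genes with a copy (10.4%) were higher in library 1, against 13 of 6428 without (0.202%). Of the 37, 20 are annotated as pseudogenes and 16 as protein coding, and for 27 the most abundant aligned partner was a ribosomal protein gene. Retrocopies arise when a messenger RNA is reverse transcribed and inserted into the genome, and ribosomal protein genes have many of them. Which of the 37 genes are retrocopies was not tested.

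In some pairs the gene higher in library 1 was the more abundant member. In library 1 Rpl9-ps6, Gm47283, Hist1h2ap and Tubb2b held 100%, 98.2%, 69.9% and 52.8% of their pair's UMIs. Gbp6 differed from Gbp4 at 16 of 60 aligned coding bases. Rpl9-ps6, Gm47283, Gbp6 and Gbp4 were named after their values were seen. The sequences of 4 of the 5 highest-ranked pairs are given here, and little separates these 4 genes from their parents. Each line is the stretch of the last 60 coding bases of the parent gene and the aligned bases of the copy, 5′ to 3′ on the sense strand, from the GENCODE M21 transcripts of GRCm38, with bases that differ in capitals. Gm5093, a processed pseudogene at chr17:46439578-46440097 on the minus strand, is set against coding bases 475 to 534 of Rpl11 (chr4:136028265-136053428, minus strand), from which it differed at 2 bases.
Gm5093: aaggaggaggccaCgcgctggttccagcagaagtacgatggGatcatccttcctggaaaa
Rpl11: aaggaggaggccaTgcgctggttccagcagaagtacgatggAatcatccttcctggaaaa
Gm10260 (chr13:97760072-97760632, minus strand) is set against coding bases 397 to 456 of Rps18 (chr17:33951999-33956001, minus strand), from which it differed at 1 base.
Gm10260: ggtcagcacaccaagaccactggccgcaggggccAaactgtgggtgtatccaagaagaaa
Rps18: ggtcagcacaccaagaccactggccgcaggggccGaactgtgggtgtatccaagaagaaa
Rpl36-ps3, a processed pseudogene at chr12:12912022-12912336 on the plus strand, had 0 differing bases over coding bases 256 to 315 of Rpl36 (chr17:56613416-56614243, plus strand).
Rpl36-ps3 and Rpl36: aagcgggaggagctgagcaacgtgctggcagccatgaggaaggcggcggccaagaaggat
Gm11273 (chr13:21501029-21501418, minus strand) likewise had 0 differing bases over coding bases 328 to 387 of Cox5b (chr1:36691449-36693681, plus strand), which encodes a subunit of cytochrome c oxidase.
Gm11273 and Cox5b: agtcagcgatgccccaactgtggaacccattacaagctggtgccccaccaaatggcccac

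Gm11273 had the largest ratio of the copies. Its level was 39.4 CPM in library 1, 17.4 in library 2, 32.9 in library 3 and 21.9 in library 4, so libraries 1 and 3 were high and 2 and 4 low. Its log2 ratio between libraries 1 and 2 was 1.18 (0.92 to 1.45). Its partner Cox5b stood at 442, 449, 379 and 410 CPM, with a log2 ratio of -0.02 between libraries 1 and 2.

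The pseudogene Rpl36-ps3 was also high in libraries 1 and 3, with library 3 the highest. It stood at 141 CPM in library 1, 69.9 in library 2, 178 in library 3 and 97.9 in library 4 (log2 ratio of libraries 1 and 2 1.01, 0.87 to 1.14). Rpl36, a protein of the large ribosomal subunit, stood at 4095, 3704, 4374 and 3916 CPM, a log2 ratio of 0.14. Rps26-ps1 stood at 301, 163, 314 and 213 CPM. Its partner Rps26, of the small subunit, was at 3687 and 3446 CPM in libraries 1 and 2. The long noncoding RNA gene Gm10076, chosen after its values were seen as the most abundant copy, stood at 1679, 1007, 1719 and 1251 CPM and its partner Rpl41 at 9424 and 8523 CPM in libraries 1 and 2. All of these copies were higher in libraries 1 and 3 than in libraries 2 and 4.

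Of the 37 partners 0 were 1.5-fold higher in library 1 and 2 were 1.5-fold higher in library 2. Those were Gm21887 (-1.28) and Rpl9-ps1 (-1.07), both named after their values were seen. Both were near the floor, at 1.01 and 2.57 CPM and at 0 and 0.0887 CPM in libraries 1 and 2. Their counts were too low for a call. The median log2 ratio of the partners was 0.06 and the highest 0.58. The share that the called gene took of the UMIs of its pair was higher in library 1 than in library 2 in 37 of 37 pairs. The choice of genes largely fixes this. The median share was 8.63% in library 1, 6.12% in library 2, 9.67% in library 3 and 6.59% in library 4. In each of the 5 clusters with over 100 cells of both libraries, Gm11273, Rpl36-ps3, Rps26-ps1 and Gm10076 were higher in library 1. Each log2 ratio of these 4 genes lay between 0.57 and 1.51. How the authors' counting treated a read that matches both a gene and its copy is not stated by any source used here, so levels of both members of a pair are uncertain.

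**Figure D3:**
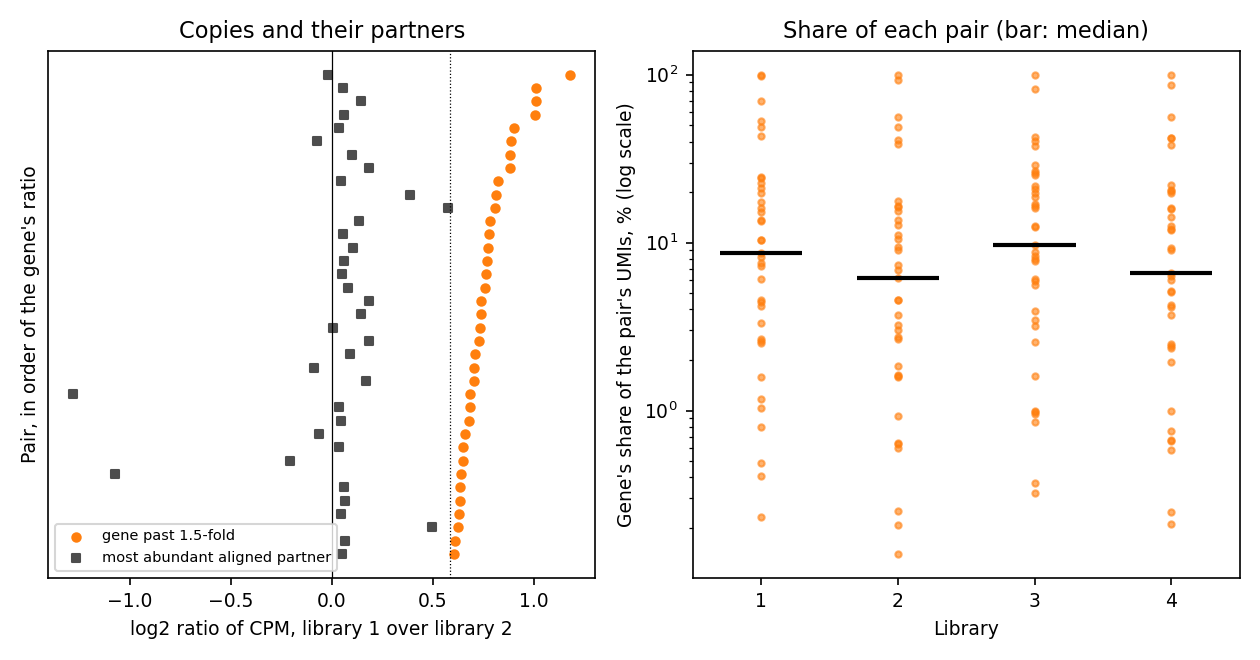
Left, log2 ratio of CPM between library 1 and library 2 (x axis) for 37 genes past 1.5-fold (orange) and, at the same height, the most abundant gene each aligns to (grey squares). Right, the gene's share of its pair's UMIs in each library (y axis, %, log scale), with the median as a bar: 8.63%, 6.12%, 9.67% and 6.59% in libraries 1 to 4.

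Among genes without a near-identical copy, 13 were higher in library 1. The largest ratio was that of Cdk5rap1 (chr2:154335380-154373010, minus strand), which encodes an enzyme that modifies transfer RNA in mitochondria. It stood at 21.3 CPM in library 1, 7.18 in library 2, 6.12 in library 3 and 10.9 in library 4, so that library 1 was high against all others. It was 2.95-fold higher in library 1 than in library 2 (log2 ratio 1.56, 1.18 to 1.97), and higher in library 1 in each of the 5 large clusters (log2 ratios 0.60 to 2.33).

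Rbmx, an X-linked RNA-binding protein of splicing (chrX:57383530-57393036, minus strand), had a similar pattern. It stood at 54.1, 29.3, 24.1 and 27.3 CPM in libraries 1 to 4, again highest in library 1, with a log2 ratio of libraries 1 and 2 of 0.89 (0.68 to 1.10). The small nucleolar RNA gene Snord61 lies inside it on the same strand. Bbc3, which encodes the death-promoting BH3-only protein PUMA, stood at 45.0, 27.8, 32.5 and 28.1 CPM (0.70, 0.47 to 0.92). It was the only member past 1.5-fold among 15 apoptosis genes, whose median log2 ratio was -0.03. Itgb8, the integrin subunit with which Treg cells activate TGF-beta, stood at 14.1, 8.96, 8.74 and 9.58 CPM (0.65, 0.25 to 1.05). With cells thinned to 2056 UMIs the log2 ratios of Bbc3 and Itgb8 were 0.50 and 0.26, under 1.5-fold. In all 4 of these genes library 1 was the highest of the 4 libraries.

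The other genes of this group varied in pattern across the side libraries, and all but Zfp395 were named after their values were seen. Zfp36l2, an RNA-binding protein that speeds messenger RNA decay, stood at 226 CPM in library 1, 149 in library 2, 224 in library 3 and 156 in library 4, high in libraries 1 and 3. Its log2 ratio of libraries 1 and 2 was 0.60, and with ratios stratified by cluster it was 0.53, under 1.5-fold. It was at 447 and 280 CPM in cluster 1, which held more of library 1, and in cluster 4 its log2 ratio was 0.04. Zfp395 stood at 15.7, 8.96, 17.0 and 11.02 CPM, and Ccdc85b, whose gene overlaps Fosl1 on the other strand, at 24.0, 15.3, 29.4 and 18.7 CPM. The remaining members were Mfsd11, Ppp1r21, Pnpla7, Sdc4, Gm26917 and Usp53, with log2 ratios of 0.59 to 0.76. Library 1 was the highest of the 4 libraries for 9 of the 13 genes and library 3 for the other 4, an order that the choice of genes favours.

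In the other direction, 9 genes were higher in library 2. Igfbp4 (chr11:99041244-99054392, plus strand), which encodes a secreted protein that binds insulin-like growth factors, was at 105 CPM in library 2 and at 44.4, 33.1 and 44.6 CPM in libraries 1, 3 and 4. Only library 2 was high. The gene was 2.37-fold higher in library 2 than in library 1 (log2 ratio -1.24, -1.42 to -1.07). The 10 cells with the most of its UMIs held 23.1% of them in library 1 and 9.62% in library 2, so the difference did not rest on a few cells of library 2. It was higher in library 2 in each of the 5 large clusters, with log2 ratios of -2.59 to -1.02. In the TCR and NF-kB-signalled cluster it had 8 UMIs in library 1 and 87 in library 2. The double-positive thymocyte-like cells went the other way, with 16 UMIs in 13 cells of library 1 and 2 UMIs in 26 cells of library 2. Igfbp4 was the only one of 9 naive CD4 T cell genes past the threshold, and the median log2 ratio of that list was -0.03.

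Drc1 (chr5:30281388-30366695, plus strand), known as a part of the dynein regulatory complex of cilia, stood at 15.6 CPM in library 1, 36.0 in library 2, 3.85 in library 3 and 24.8 in library 4. Library 2 was the highest and library 3 the lowest. It was 2.30-fold higher in library 2 than in library 1 (log2 ratio -1.20, -1.51 to -0.91), and Gm43755 overlaps it on the same strand. It was one of the leading genes of cluster 2, where it stood at 24.4 and 68.8 CPM (-1.49, -1.92 to -1.09). In the S phase cluster its levels were close, at 11.9 and 13.4 CPM (-0.15, -1.09 to 0.71).

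The other 7 genes were nearer the threshold. Ass1, an enzyme of arginine synthesis whose pseudogene Gm5424 is a near-identical copy, stood at 55.0, 85.1, 34.6 and 78.8 CPM in libraries 1 to 4. Cenpk, a centromere protein, stood at 17.4, 26.5, 4.20 and 16.9 CPM, and Pole2, a subunit of DNA polymerase epsilon, at 9.63, 14.5, 4.37 and 10.4 CPM. Both were lowest in library 3. Lmna, which encodes lamin A and C of the nuclear envelope, stood at 9.38, 14.99, 12.9 and 13.8 CPM. Penk, which encodes the precursor of the enkephalin peptides, stood at 56.1, 84.5, 63.7 and 34.3 CPM, but 10 cells held 52.4% of its UMIs in library 1 and 29.2% in library 2. It was lower in library 1 than in library 2 in the S phase cluster (-1.83, -2.21 to -1.49) and higher in library 1 in cluster 2 (0.54, 0.22 to 0.87) and cluster 4 (0.54, 0.05 to 1.03). Gpatch4 and Gm42722, which lies antisense to 3 other genes, completed the list. Library 2 was the highest of the 4 libraries for each of the 8 genes without a copy, which the choice of genes favours too. Penk, Pole2, Cenpk, Gpatch4, Ass1 and Gm42722 fell under 1.5-fold in 3 or more of 9 alternatives, all with the same direction.

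**Figure D4:**
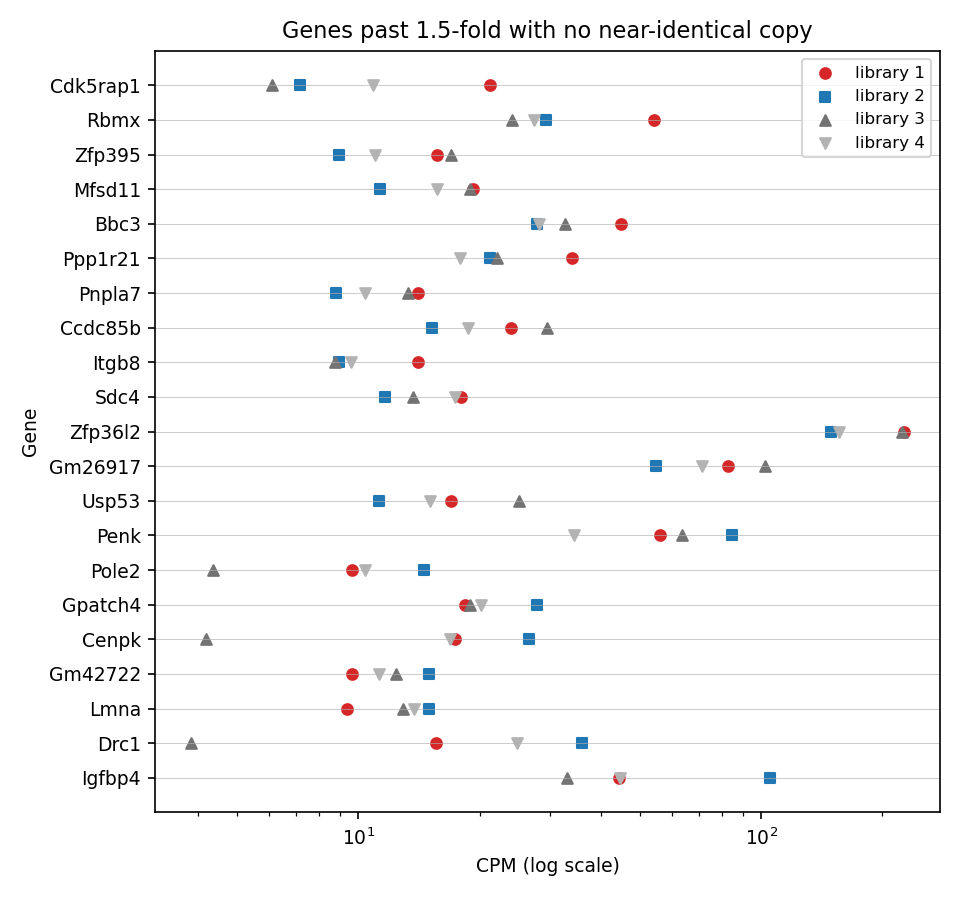
Level (x axis, CPM on a log scale) of the 21 genes past 1.5-fold that have no near-identical copy, in each of the 4 libraries (red circles, library 1; blue squares, library 2; grey triangles, libraries 3 and 4). Cdk5rap1, Rbmx and Bbc3 are high in library 1 alone and Igfbp4 in library 2 alone, while Zfp36l2 is high in libraries 1 and 3.

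The genes around the cytokine loci were compared because the IL2 and the IL15 line are defined by them. Among 33 genes with at least 200 UMIs that lie within 10 Mb of Il2 (chr3:37120523-37125959) 0 passed 1.5-fold, and among 69 around Il15 (chr8:82331632-82403222) 0 did. The largest absolute log2 ratios there were 0.40 (Acad9) and 0.54 (Cnep1r1). Against the overall share of 0.884%, windows with so few genes are not informative about rare differences.

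Over all cells, Treg identity genes with at least 50 UMIs differed by less than 1.5-fold between the libraries. Gene lists were read over members with at least 50 UMIs. At that minimum 1.84% of 9477 genes were 1.5-fold higher in library 1 and 1.41% in library 2 (3.25% in either direction), and the median log2 ratio was -0.04. Of 16 Treg identity genes 0 passed 1.5-fold in either direction, with a median of -0.10. Il2ra (CD25), the alpha chain of the IL-2 receptor, was at 181 CPM in libraries 1 and 2, at 31.1 CPM in library 3 and at 158 CPM in library 4. Its equal totals in libraries 1 and 2 did not hold in every cluster. Il2ra stood at 57.7 and 38.1 CPM in cluster 1 (0.60, 0.15 to 1.05), past 1.5-fold. In the proliferating cluster it stood at 124 and 155 CPM (-0.31, -0.59 to -0.05). Tnfrsf18 (GITR) was at 804 and 968 CPM in libraries 1 and 2 (-0.27, -0.31 to -0.22), and Capg, an actin-capping protein, at 216 and 262 CPM (-0.28, -0.36 to -0.19). Nrp1, a surface receptor of thymus-derived Treg cells, went the other way at 60.2 and 48.2 CPM (0.32, 0.14 to 0.50). The intervals of Tnfrsf18, Capg and Nrp1 lay away from 0, and their differences were under 1.5-fold.

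The other receptor chains were also close. Il2rb, the beta chain of the receptors for both cytokines, stood at 191 and 233 CPM (-0.29, -0.38 to -0.19) and was higher in library 2 in each of the 5 large clusters. Il2rg, the common gamma chain, stood at 255 and 236 CPM (0.11, 0.03 to 0.19). Of 7 common gamma receptor genes, 0 were past 1.5-fold in favour of library 1 and 1 in favour of library 2. That gene was Il15ra, the alpha chain of the IL-15 receptor, with 25 UMIs in library 1 and 56 in library 2 (3.17 and 4.97 CPM), and its interval included 0 (-0.63, -1.39 to 0.06).

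Of 16 genes of the IL-2 and STAT5 response, 0 passed 1.5-fold in either direction, with a median of -0.19. Of the 16, 13 were lower in library 1, against 59.6% of all genes with at least 50 UMIs. Socs1, an inhibitor of cytokine signalling that STAT5 induces, stood at 67.9 CPM in library 1, 99.2 in library 2, 83.1 in library 3 and 104 in library 4 (-0.54, -0.70 to -0.40), so that library 1 was the lowest. It was lower in library 1 in each of the 5 large clusters, and past 1.5-fold with each cell weighted alike (-0.61) and with cells thinned to 2056 UMIs (-0.60). Socs2 stood at 32.3, 43.8, 0.875 and 39.5 CPM (-0.44, -0.66 to -0.22), and Ccnd2, a D-type cyclin, at 687, 867, 756 and 902 CPM (-0.34, -0.39 to -0.29). Both were lower in library 1 than in library 2, and library 3 was the lowest for Socs2 alone.

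The cytokines themselves were at similar levels. Il2 stood at 37.3, 30.2, 42.7 and 36.6 CPM in libraries 1 to 4, with 294 and 340 UMIs in libraries 1 and 2 (log2 ratio 0.31, 0.08 to 0.53). Il15 had 8 and 5 UMIs, too few to compare. Ltb, lymphotoxin beta, stood at 1168 and 1254 CPM, and Tgfb1 at 329 and 364 CPM. Of 7 cytokine genes with at least 50 UMIs, 0 were past 1.5-fold in favour of library 1 and 1 in favour of library 2, namely Tnf, with 17 and 44 UMIs.

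Cell cycle genes were lower in library 1 as a list, without any member past the threshold. All 17 G2 and M phase genes had a log2 ratio below 0, between -0.44 and -0.07, with a median of -0.23. All 18 S phase genes did so too, between -0.42 and -0.02, with a median of -0.23. Over all genes with at least 50 UMIs, 59.6% had a ratio below 0. Cdk1, the mitotic kinase, stood at 55.5, 75.3, 6.47 and 52.9 CPM in libraries 1 to 4, and Mcm2, of the replicative helicase, at 64.9, 86.6, 29.2 and 66.7 CPM. Libraries 1 and 4 were nearly equal, library 2 was the highest and library 3 the lowest. The share of cells in the proliferating cluster, 7.33% and 9.22%, moved in the same direction. With ratios stratified by cluster the medians were -0.18 and -0.17.

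Lists of growth and metabolism leaned the same way. Of 12 cholesterol synthesis genes 12 were lower in library 1, with a median of -0.30, and 1, the squalene epoxidase gene Sqle, was past 1.5-fold (7.10 and 11.97 CPM). Of 20 genes of ribosome biogenesis that MYC is known to drive 17 were lower in library 1, with a median of -0.17 and 0 past the threshold. Of 14 glycolysis genes 1 was past it in favour of library 2, the hexokinase gene Hk2, with 23 and 62 UMIs, and the median was -0.15. Pgk1, which encodes phosphoglycerate kinase, went the other way at 65.0 and 47.1 CPM (0.47, 0.29 to 0.64).

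Some other lists stayed near the median of all genes. The medians were -0.02 for 23 interferon response genes, -0.05 for 17 genes of late maturation and egress and -0.05 for 20 genes of the T cell receptor and NF-kB response, and 0 members of these 3 lists passed 1.5-fold. Klf2, the transcription factor that controls exit from the thymus, stood at 1136 and 1352 CPM (-0.25, -0.29 to -0.21). Ribosomal protein genes leaned towards library 1, with a median of 0.06 over 79 members, against -0.04 over all genes with at least 50 UMIs. Of the 79, 0 passed 1.5-fold and 72 were higher in library 1, while 59.6% of all genes were lower there. Rps27rt, itself a retrocopy, was nearest to the threshold, at 1849, 1238, 2692 and 1726 CPM in libraries 1 to 4. Of 13 effector Treg genes 2 were past 1.5-fold in favour of library 1, Itgb8 and Il1r2, and the list median was 0.03. Summed over all 19 genes of that list, the level was lower in library 1, at 831 and 1011 CPM. Il1r2, the decoy receptor for IL-1, stood at 12.2, 5.32, 6.12 and 8.02 CPM (1.19, 0.71 to 1.68).

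**Figure D5:**
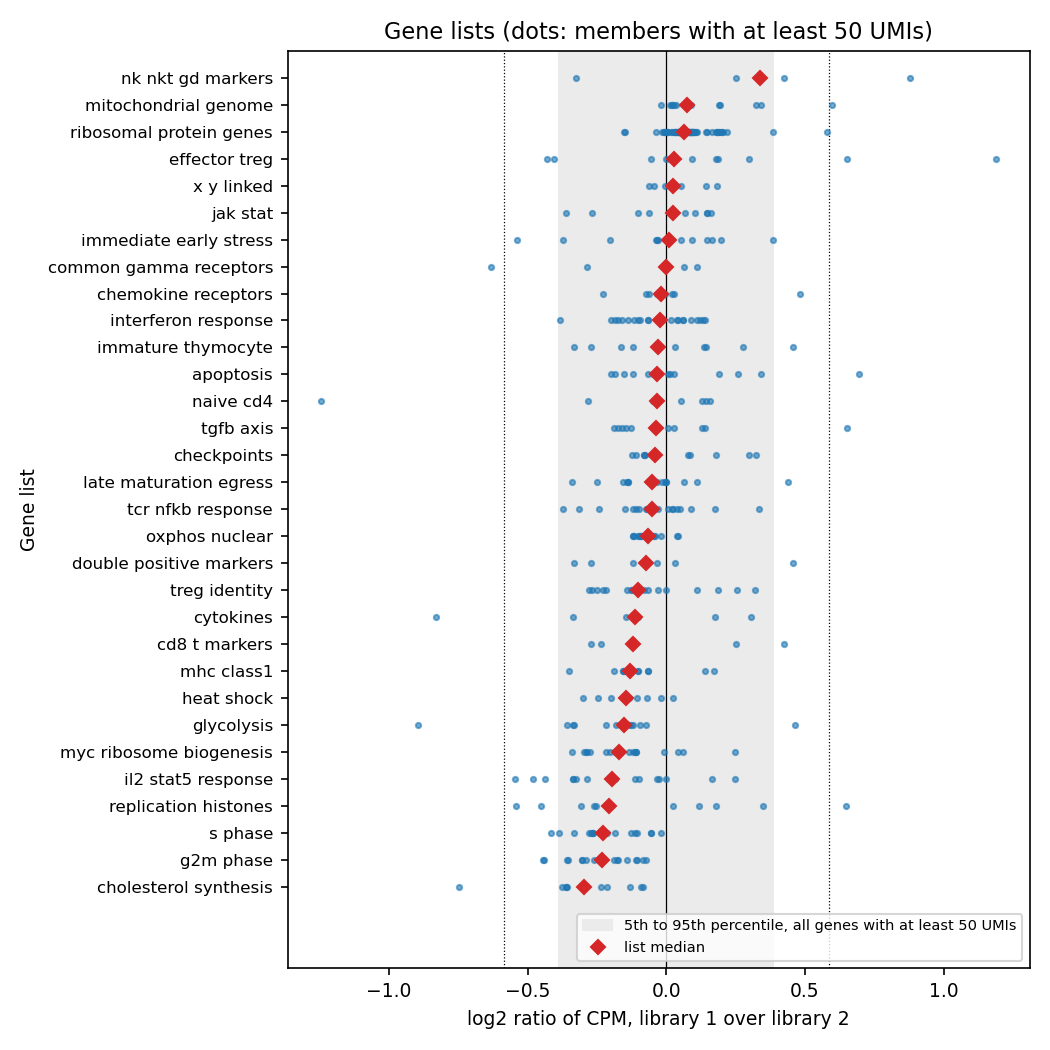
Log2 ratio of CPM between library 1 and library 2 (x axis) for the members (blue dots) and the median (red diamonds) of 31 gene lists (y axis) with at least 4 members of 50 UMIs or more; grey marks the middle 90% of all such genes and dotted lines a 1.5-fold difference. List medians run from -0.30 for cholesterol synthesis to 0.34 for 4 markers of NK and gamma delta T cells, and few dots lie outside the grey band.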

How the data were processed

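Droplet 3' single-cell libraries were measured from 4 samples. The deposited table holds whole-number UMI counts for 27998 identifiers in 8273 cells. The submitters' processing notes name Cell Ranger 2.0.2, CASAVA 2.20, R 3.4.1 and the build mm10. No source used here states the cell filter. The authors also deposited log2 values for 7231 cells named as G1, of which only the cell names were used. All 8273 columns are tied to no sample, so no sample was assigned to a group, and no doublets were called. Symbols for 27645 identifiers came from GENCODE M21 (GRCm38).

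UMI counts were summed over each library's cells and scaled to CPM, with 0.5 UMIs added for log2 ratios. A gene was called past 1.5-fold with at least 200 UMIs over both libraries, and list members needed 50 UMIs. Ratios have exact conditional binomial, CPM exact Poisson and shares exact Clopper-Pearson intervals, all for counting error only. Since UMIs and cells within a library do not replicate it, p-values were not computed. Copies were found with BLAST 2.17.0 on the longest basic-set transcript of each gene. Clusters came from scanpy 1.11.5 and igraph 0.11.9 (2000 variable genes, 30 components, 15 neighbours, resolution 0.6), without the called, ribosomal, mitochondrial, receptor, sex-linked and cell cycle genes. Clusters were named by marker class when at least 3, and 2 of every 3, detected markers were 1.5-fold higher and 1 or more was among the 10 leading genes, a rule set after the data were seen. The code was tested on simulated data.

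The members and lists were chosen with earlier results of these data known. Named genes were up to 15 called genes a direction by size of ratio, up to 5 genes of each list by size of ratio, the cytokine, receptor, Treg identity and sex-linked genes, the 15 most abundant genes and up to 8 leading genes per cluster; others are marked in the text. Genes Trdc, Tcrg-C1, Tcrg-C2, Ighm, Igkc and Iglc2 were not analysed here. Alternatives covered scaling, weighting, cell filters, depth, thresholds, stratification and clustering settings. Computations ran in Python 3.11.15 with scipy 1.17.1, numpy 2.4.6 and pandas 2.3.3, and plots in matplotlib 3.10.9.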

Additional observations from a re-analysis of the deposited data

How the results depend on the processing

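No paired analysis was possible because each side is 1 library and no label ties a library to a sample. The 51 genes higher in library 1 became 174 with a minimum of 50 UMIs and 5 at a threshold of 2-fold. The 14 of them without a near-identical copy, counting any without an annotated transcript, became 119 and 5 with minimums of 50 and 500 UMIs, 1 at 2-fold and 7 with cells thinned to 2056 UMIs (3655 cells kept). The 9 genes higher in library 2 became 134 and 4 with those minimums, 2 at 2-fold, 5 with median of ratios scaling, 5 with the trimmed mean of M-values, 4 with totals without mitochondrial and ribosomal protein genes, 37 with each cell weighted alike, 18 in cells of the authors' G1 table and 19 with thinned cells. Beyond the moved thresholds themselves, the cause was not tested.

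Of the 60 called genes, 34 were followed through the 9 alternatives. None of these 34 changed sign, and 17 of them stayed past 1.5-fold in every alternative. The other called genes were not followed. Igfbp4 ranged from -1.29 to -1.13, Drc1 from -1.52 to -1.16 and Cdk5rap1 from 1.45 to 1.74. Of the genes under the threshold that were followed, Foxp3 (0.19) and Il2ra (0.00) turned to -0.01 and -0.02 with thinned cells, and 14 of 29 list medians changed sign in at least 1 alternative. The median of all genes moved from -0.05 to between -0.05 and -0.01. The median of the G2 and M phase genes reached -0.62 in cells of the G1 table, where they have few UMIs. The share of proliferating cells stayed within its interval. Libraries thinned to equal totals, given beside the pairs of libraries, were an alternative chosen after seeing the data. Genes under 200 UMIs and clusters under 100 cells were too thin to compare singly.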

Other observations

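Transcripts of the mitochondrial genome leaned towards library 1. Of 13 mitochondrial genes 12 had a log2 ratio above 0, with a median of 0.07, while 16 of 18 nuclear genes of oxidative phosphorylation had one below 0, with a median of -0.07. Over all genes with at least 50 UMIs the median was -0.04 and 59.6% lay below 0, so the nuclear list was close to the median of all genes. The ratio was largest for mt-Nd6, at 11.3 and 7.45 CPM (0.60, 0.15 to 1.05), for mt-Atp8, at 49.7 and 39.2 CPM (0.34, 0.14 to 0.54), and for mt-Nd4l, at 73.5 and 58.7 CPM (0.32, 0.16 to 0.49). Other genes of the list differed less.

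Among replication-dependent histone genes, Hist1h2ap, an H2A gene with near-identical copies, stood at 519 CPM in library 1, 332 in library 2, 105 in library 3 and 313 in library 4, with a log2 ratio of libraries 1 and 2 of 0.65 (0.58 to 0.71). It was higher in library 1 although the median of its 11-gene list was -0.21, a median that became 0.11 without proliferating cells. Antigen presentation genes leaned to library 2. Of 14 MHC class I genes 12 were lower in library 1, against 59.6% of all genes with at least 50 UMIs. Their median was -0.13, and H2-Q7 stood at 126 and 161 CPM (-0.35, -0.47 to -0.24). A few UMIs came from single cells. All 10 UMIs of Il10 in library 1 came from 1 cell, and 96.8% of the 31 UMIs of Gzma in library 2 came from its 10 highest cells. Of those 31 UMIs, 26 lay in the double-positive thymocyte-like cluster.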
